A study of Homo sapiens with 24 samples.

Results

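The genes described here are 10 genes of MHC class I antigen processing: B2M, TAP1, TAP2, TAPBP, PSMB8, PSMB9, PSMB10, ERAP1, ERAP2 and NLRC5. Every probe set that the array's annotation gives to one of these symbols and to no other was taken, which gave 25 of the 54613 probe sets of the array and 10 of the 19775 genes that have a probe set of their own. RWPE1, an immortalized epithelial line from human prostate that does not form tumors, was cultured with 1,25(OH)2D, the active hormone made from vitamin D, and the RNA of each culture was measured on an Affymetrix U133 Plus 2.0 array. The study asked how gene expression in these non-tumor cells responds to the hormone over time. In 3 groups the cells received 100 nM 1,25(OH)2D for 6, 24 or 48 h, and in the other 3 vehicle (0.1% ethanol) for the same times. All cells were treated when the flasks were partly confluent, and in both 48 h groups the medium was exchanged at 24 h, so time, cell density and that exchange cannot be told apart. Each of the 6 groups had 4 arrays, labelled as biological replicates, and the cells are 1 line, so the p-values cover the spread between cultures of that line.

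MHC class I molecules show peptides from inside the cell to cytotoxic T cells. The proteasome cuts proteins into peptides, the TAP1 and TAP2 pump carries them into the endoplasmic reticulum, ERAP1 and ERAP2 trim them there, and tapasin (TAPBP) helps to fit them into the groove of a heavy chain that is paired with B2M. Interferon raises most of these genes. Among them are PSMB8, PSMB9 and PSMB10, which take the place of the 3 catalytic subunits of the standard proteasome and so form the immunoproteasome. Most nucleated cells, epithelial ones included, also express class I without interferon. On chromosome 6 the genes TAP2, PSMB8, TAP1 and PSMB9 lie close together within 38021 bases (chr6:32821831-32859851, RefSeq, GRCh38.p14). The starts of TAP1 and PSMB9 are 488 bases apart and point away from each other. TAPBP is on the same chromosome (chr6:33299694-33314078), ERAP1 and ERAP2 are neighbours on chromosome 5, B2M is on chromosome 15, and PSMB10 and NLRC5 are on chromosome 16.

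RefSeq promoter windows (250 bases before to 50 bases after each transcript start, GRCh38.p14) were held for 9 of the 10 genes, 13 windows in all. They are shown because most of these promoters carry the same short letters. The interferon-stimulated response element (ISRE), the DNA site of interferon regulatory factors, was searched as GAAANNGAAA on both strands. It matched in 8 of the 9 genes and in 8 of the 13 windows, against 4.38% of all 27305 genes and 3.57% of all 35116 windows. A match is a description of the letters and no evidence that a factor binds there. The stretches are printed 5′ to 3′ on the strand of the gene, with ISRE-like letters in capitals, and where the match lies on the opposite strand the capitals read as the reverse complement.
PSMB8 (chr6:32844028-32844132, minus strand): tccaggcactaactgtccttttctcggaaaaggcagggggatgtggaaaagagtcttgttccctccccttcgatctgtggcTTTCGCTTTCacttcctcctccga
PSMB10 (chr16:67936842-67936891, minus strand): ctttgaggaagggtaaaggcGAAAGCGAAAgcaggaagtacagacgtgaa
TAP1 (chr6:32853747-32853858, minus strand): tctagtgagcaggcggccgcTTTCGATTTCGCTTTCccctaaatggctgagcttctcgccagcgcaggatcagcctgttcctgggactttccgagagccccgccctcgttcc
TAP2 (chr6:32838768-32838817, minus strand): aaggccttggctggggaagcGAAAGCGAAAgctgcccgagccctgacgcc
TAPBP (chr6:33314063-33314118, minus strand): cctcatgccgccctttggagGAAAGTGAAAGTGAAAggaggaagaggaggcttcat
ERAP1 (chr5:96807926-96807963, minus strand): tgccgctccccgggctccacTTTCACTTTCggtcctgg
ERAP2 (chr5:96876450-96876499, plus strand): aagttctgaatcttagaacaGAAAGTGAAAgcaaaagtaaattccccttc
B2M (chr15:44711353-44711421, plus strand): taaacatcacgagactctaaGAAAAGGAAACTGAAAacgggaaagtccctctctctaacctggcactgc

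In TAP1, TAPBP and B2M a pair of matches overlapped, so the capitals run longer. The distance from the start varied widely. The letters lay across the start in PSMB8, just after it in ERAP1, within 30 bases before it in PSMB10, TAPBP and ERAP2, at positions -58 to -49 in TAP2, and at -134 to -119 in TAP1 and -144 to -129 in B2M. PSMB8, TAP1, ERAP1 and ERAP2 each have another start, whose window held no ISRE-like letters. PSMB9 had no ISRE-like letters in its own window. Those of TAP1 lie between the starts of both genes, 354 to 369 bases before that of PSMB9, beyond its window. The site of NF-kB was searched as GGGANNTTCC and matched in 2 of the 9 genes, TAP1 (-72 to -63) and B2M (-125 to -116, opposite strand), against 1.97% of all genes. The STAT site (GAS) was searched as TTCNNNGAA and matched in PSMB8 (-65 to -57) and in the window of the other start of TAP1 (-189 to -181), again 2 of 9, against 9.38% of all genes. CCAAT, bound by NF-Y, was found in 4 of 9 (ERAP1, TAP1, PSMB9 and B2M), against 39.7% of all genes, and in TAP1 and PSMB9 it was the same 5 bases, read in the 13 bases that their windows share. Repeats of AGGTCA or of GGTTCA spaced by 3 bases, a form of the vitamin D response element, were in 0 of the 9 genes and in 2 windows each of all 35116.

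**Figure D1:**
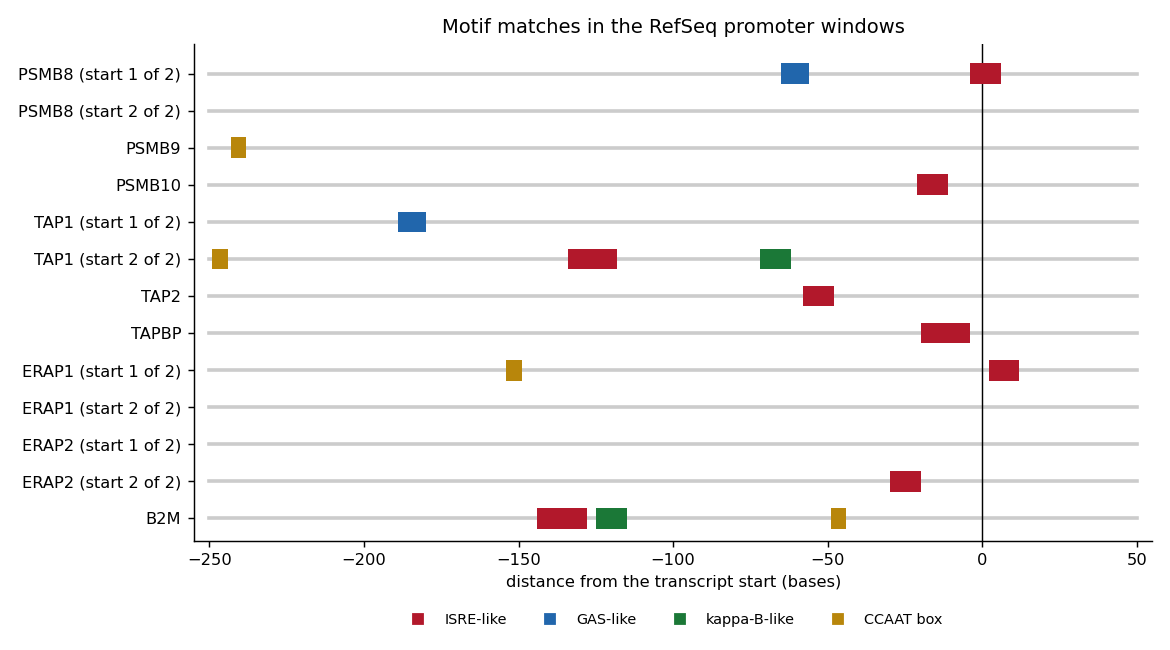
Matches of 4 motifs in the 13 RefSeq promoter windows of 9 genes, by distance from the transcript start in bases (grey line: the window, colours: motifs on either strand). ISRE-like letters stand in 8 of the 9 genes, before, across or just after the start, and PSMB9 has none in its window.

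The deposited values are log2 expression values that the authors made with gcRMA, a method that corrects background, equalizes the distributions of all 24 arrays and summarises each probe set. Probe sets that reached 3.2 in 3 of 4 arrays of at least 1 group were tested, 26036 of 54613, and each of 12026 genes is given by its brightest probe set among those tested that carry 1 symbol. Both treatments were compared within each time by limma (4 arrays against 4), and a gene counts as changed at an adjusted p (Benjamini-Hochberg over all 26036 probe sets) under 0.05. CYP24A1, the classic target of 1,25(OH)2D, was between 8.90 and 13.90 on all arrays with the hormone, against 3.48 to 4.51 on all vehicle arrays. After the group means were taken away, 1 axis held 75.2% of the remaining variance, and 4 arrays stood far out on it: 1,25(OH)2D replicates 1 and 4 at 24 h, and vehicle replicate 1 at 6 h and at 24 h. Averaged over genes, the SD within a group was at 6, 24 and 48 h 0.256, 0.411 and 0.157 with 1,25(OH)2D, against 0.270, 0.259 and 0.112 in vehicle. For 6 genes that mark basal prostate epithelium, the means over the 24 arrays ran from 9.1 (DSG3) to 16.12 (KRT14), with KRT5 at 15.34. Those of luminal markers ran from 2.31 (TMPRSS2) to 14.4 (KRT18), with KRT8 at 12.95. Of 7 leukocyte markers on the array 6 were below the level filter. The summed log2 level of the 7 leukocyte markers at 48 h was 16.2 to 16.5 with 1,25(OH)2D, against 16.3 to 16.5 in vehicle.

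Of the 10 genes 9 could be tested, with 18 probe sets. The other 7 probe sets, the single one of NLRC5 among them, stayed below the level filter. After 48 h with 1,25(OH)2D the 3 immunoproteasome subunits, TAP1, both ER aminopeptidases and B2M were lower, PSMB9 the most, while TAP2 and TAPBP did not pass the test. At that time 7 of the 9 genes fell and 0 rose, where 6.86% of all genes tested fell. In the same 7 genes all 4 arrays with 1,25(OH)2D were below all 4 vehicle arrays, which held for 10.8% of all genes. The median change of the 9 genes was -0.66 (log2), against -0.01 over all genes. RNA was taken from whole cultures, so fewer cells that express a gene and less of its RNA per cell cannot be told apart.

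**Figure D2:**
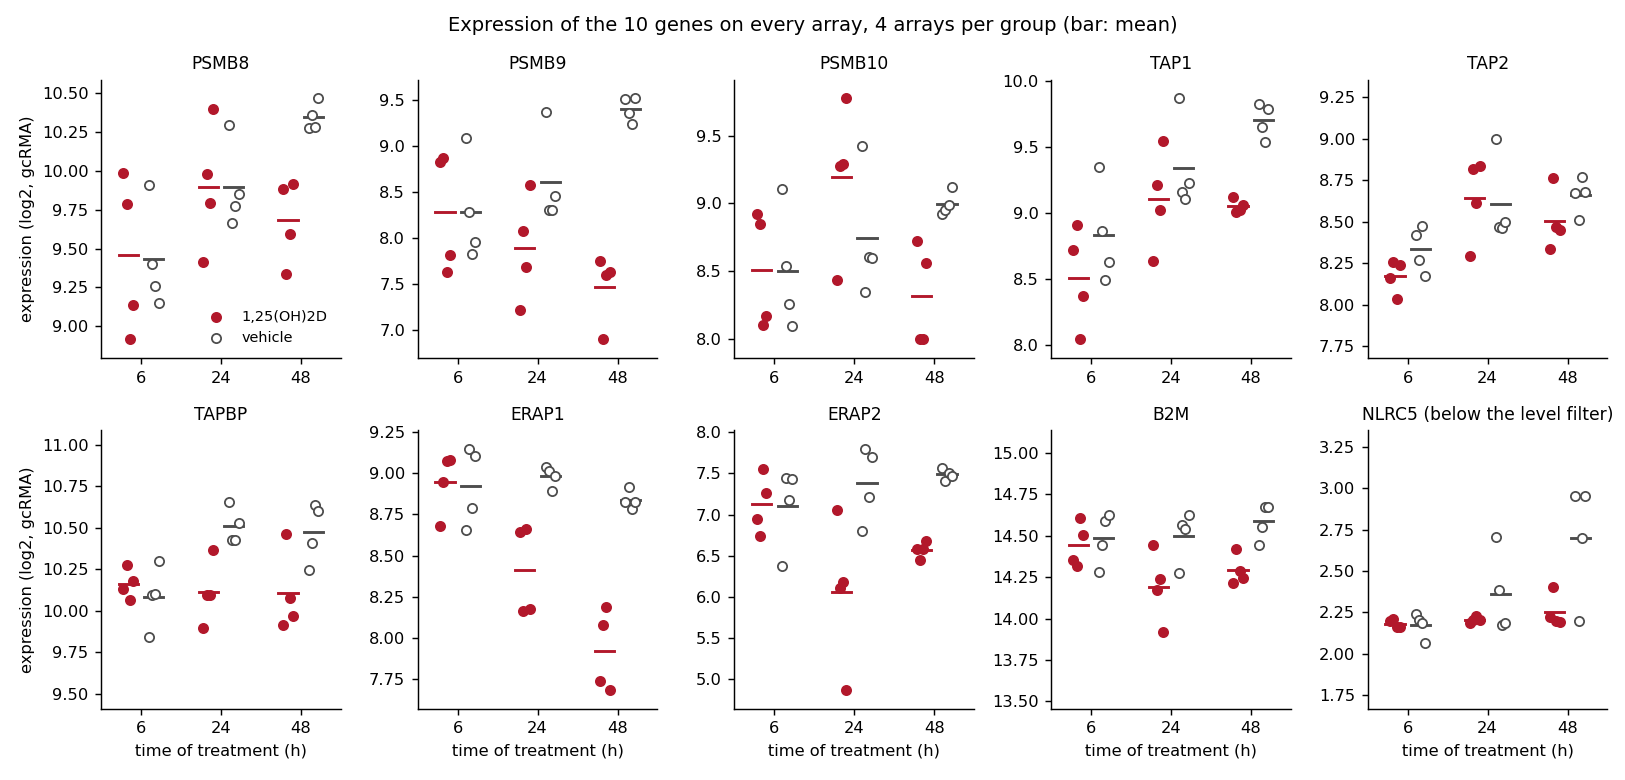
Expression (log2, gcRMA) of the 10 genes on each of the 24 arrays by hours of treatment, with 1,25(OH)2D as filled circles left of vehicle as open circles, and bars for the means of 4 arrays. Each panel has its own axis. At 48 h the filled circles lie below all open ones in every panel but TAP2, TAPBP and NLRC5.

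PSMB9 replaces the caspase-like subunit of the proteasome. At 48 h it measured 7.75, 6.90, 7.59 and 7.63 on the 4 arrays with 1,25(OH)2D, against 9.51, 9.36, 9.24 and 9.51 in vehicle. The groups stood 1.49 apart at their nearest arrays. The change was -1.94 (standard error 0.18, adjusted p = 0.000576), and on the linear scale the mean level with 1,25(OH)2D was 26.7% of that in vehicle. PSMB8, which replaces the chymotrypsin-like subunit, measured 9.88, 9.34, 9.60 and 9.91 with 1,25(OH)2D, against 10.27, 10.36, 10.28 and 10.46 in vehicle. Its groups did not overlap either, and the change was -0.66 (standard error 0.13, adjusted p = 0.0166), to 63.9% of vehicle. It missed the threshold in 5 of 19 other settings, with adjusted p up to 0.159: in 1 fit of all 24 arrays, without the level filter, and without vehicle replicate 2, vehicle replicate 4 or 1,25(OH)2D replicate 3. PSMB10, which replaces the trypsin-like subunit, measured 8.72, 8.0, 7.99 and 8.56 with 1,25(OH)2D, against 8.92, 8.95, 8.99 and 9.12 in vehicle. Its arrays with 1,25(OH)2D spread over a wide range, and the nearest one lay 0.20 below vehicle. The change of -0.68 (standard error 0.17, adjusted p = 0.0481) was close to the threshold, and it missed it in 13 of 19 other settings, leaving out any one of the 4 vehicle arrays among them, where the adjusted p was 0.0866 to 0.123.

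The standard subunits that these 3 replace had changes close to 0 at the same time. PSMB6, the counterpart of PSMB9, averaged 13.69 ± 0.22 with 1,25(OH)2D and 13.71 ± 0.05 in vehicle at 48 h (SD, n = 4 each, adjusted p = 0.971 by limma). PSMB7, the counterpart of PSMB10, averaged 14.07 ± 0.10 with 1,25(OH)2D and 14.07 ± 0.04 in vehicle (adjusted p = 0.977 by limma, n = 4 each). PSMB5, the counterpart of PSMB8, averaged 13.01 ± 0.13 with 1,25(OH)2D and 13.00 ± 0.06 in vehicle (adjusted p = 0.985 by limma, n = 4 each). Whether a subunit's change differs from that of its counterpart was not tested.

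**Figure D3:**
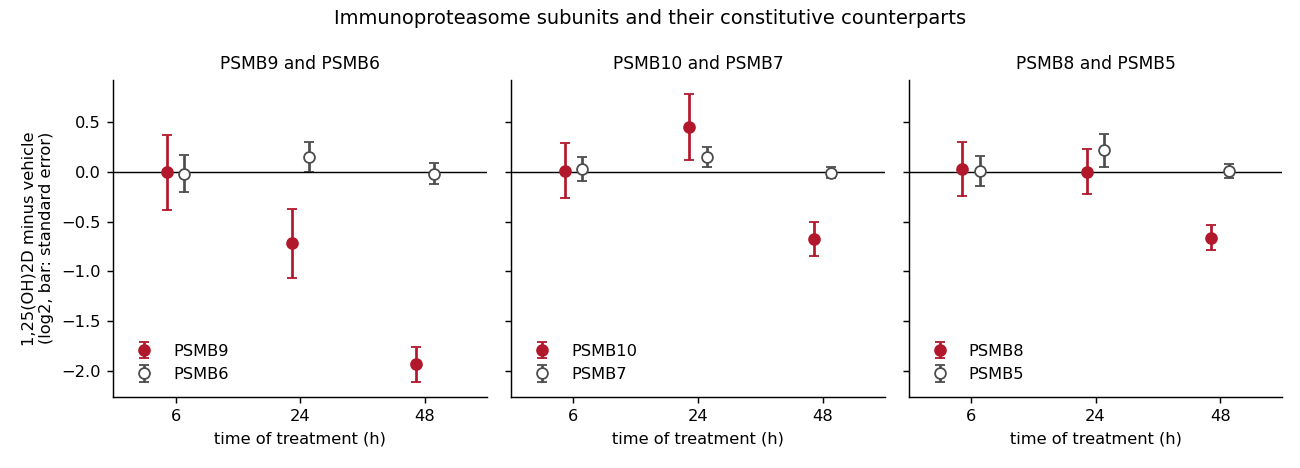
Change with 1,25(OH)2D (log2, 1,25(OH)2D minus vehicle, bars: standard errors of limma's fit at each time, n = 4 arrays per group) of each immunoproteasome subunit (filled) and its standard counterpart (open) at 6, 24 and 48 h. At 48 h the filled points lie at -1.94, -0.68 and -0.66, and the open points near 0.

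TAP1, one of the chains of the peptide pump, measured 9.12, 9.0, 9.02 and 9.06 at 48 h with 1,25(OH)2D, against 9.83, 9.65, 9.54 and 9.79 in vehicle. The arrays with 1,25(OH)2D lay close together, 0.42 below the lowest vehicle array. The change was -0.65 (standard error 0.07, adjusted p = 0.00121), to 63.6% of vehicle. TAP2, its partner chain in the pump, measured 8.33, 8.76, 8.47 and 8.45 with 1,25(OH)2D, against 8.67, 8.51, 8.77 and 8.68 in vehicle. The groups overlapped, and the change of -0.15 (standard error 0.10) did not pass the test (adjusted p = 0.426). Its 2 other tested probe sets had changes of 0.13 and 0.00 (adjusted p = 0.801 and 0.980). TAPBP, the chaperone that bridges the pump and the heavy chain, measured 9.91, 10.46, 10.07 and 9.97 with 1,25(OH)2D, against 10.25, 10.41, 10.64 and 10.60 in vehicle. Replicate 2 with 1,25(OH)2D lay among the vehicle arrays, and the change of -0.37 (standard error 0.14) did not pass the test (adjusted p = 0.154). Without that array TAPBP passed, with a change of -0.49 (adjusted p = 0.0258), the 1 of 19 other settings in which it did. Its other tested probe set had overlapping groups and a change of -0.09 (adjusted p = 0.949 by limma).

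ERAP1, the aminopeptidase that trims peptides to the length the groove accepts, measured 7.74, 8.08, 8.19 and 7.69 at 48 h with 1,25(OH)2D, against 8.82, 8.92, 8.78 and 8.83 in vehicle. All 4 arrays with the hormone were at least 0.59 below vehicle, and the change was -0.91 (standard error 0.12, adjusted p = 0.00269), to 53.7% of vehicle. A second probe set of the gene fell by 0.76 on the log2 scale (adjusted p = 0.000315), and the third had a change of -0.43 that did not pass (adjusted p = 0.0940). ERAP2, a related aminopeptidase with other preferences for the residue it removes, measured 6.58, 6.44, 6.58 and 6.68 with 1,25(OH)2D, against 7.56, 7.41, 7.50 and 7.47 in vehicle. Both groups were tight and stood 0.74 apart. The change was -0.92 (standard error 0.06, adjusted p = 9.65e-05), to 53.0% of vehicle. The next brightest probe set of ERAP2 measured 6.10, 6.40, 6.58 and 6.18 with 1,25(OH)2D, against 7.61, 7.68, 7.63 and 7.80 in vehicle. That probe set gave a larger change than the brightest one, -1.36 (standard error 0.11, adjusted p = 0.000232). Its 2 dimmer tested probe sets had changes of -0.46 and -0.42 (adjusted p = 0.114 and 0.138), with no overlap between the groups in either.

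B2M, the light chain of every class I molecule, had the smallest of the 7 changes that passed at 48 h. It measured 14.22, 14.42, 14.29 and 14.25 with 1,25(OH)2D, against 14.44, 14.55, 14.67 and 14.68 in vehicle. The groups did not overlap, but the nearest arrays were only 0.02 apart. The change was -0.29 (standard error 0.07, adjusted p = 0.0389), to 81.5% of vehicle. It missed the threshold in 10 of 19 other settings, with adjusted p up to 0.194. The other tested probe set had a change of -0.23 and did not pass (adjusted p = 0.0555). Over all 18 probe sets 9 fell at 48 h, 7 had negative changes that did not pass and 2 of TAP2 were above 0, where 5.61% of all probe sets tested fell.

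**Figure D4:**
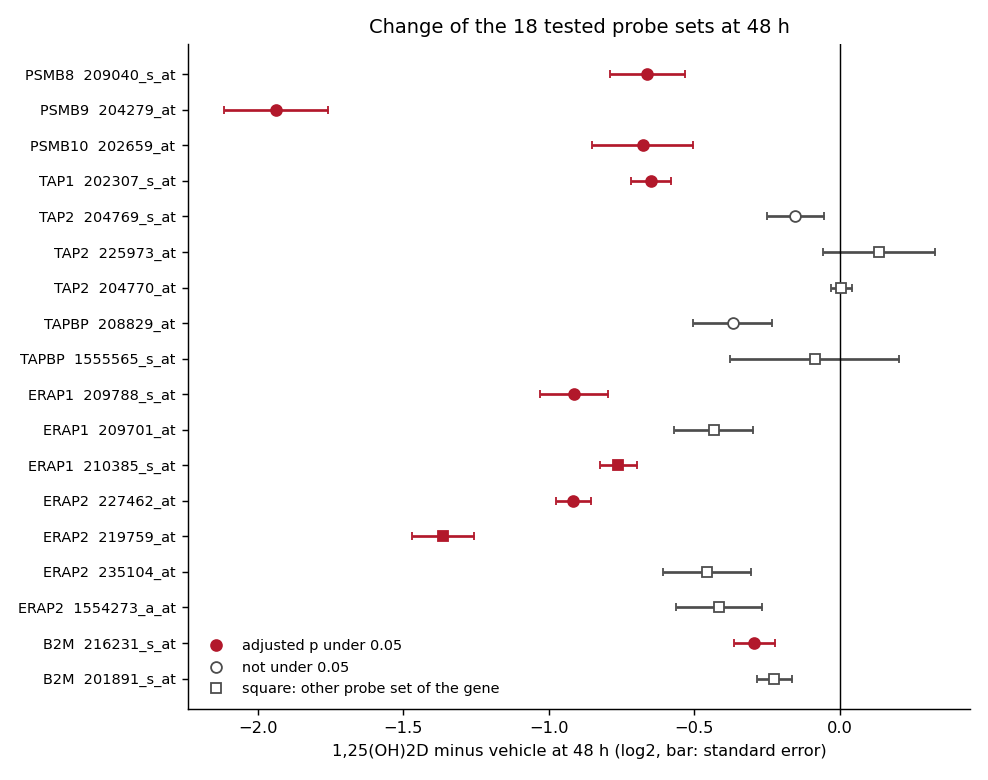
Change at 48 h (log2, 1,25(OH)2D minus vehicle, bars: standard error of limma's fit, 4 arrays per group) of the 18 tested probe sets of 9 genes, with the probe set that stands for the gene as a circle and the others as squares. Filled symbols passed an adjusted p of 0.05. PSMB9 lies farthest to the left at -1.94, and the probe sets of a gene differ in size, as for ERAP2 between -1.36 and -0.42.

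NLRC5, the transactivator of class I genes, was measured by 1 probe set with values between 2.07 and 2.95, below the level filter, so it was not tested. At 48 h it measured 2.22, 2.40, 2.20 and 2.19 with 1,25(OH)2D, against 2.95, 2.20, 2.70 and 2.95 in vehicle. At 24 h it was 2.19 to 2.23 with 1,25(OH)2D, against 2.17 to 2.70 in vehicle. The highest values were vehicle arrays, but the groups overlapped at both times.

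At 48 h the count of 7 was 2 (PSMB9 and ERAP1) when all 24 arrays shared 1 estimate of the spread, which the more widely spread arrays of 6 and 24 h enter, and 4 without the level filter or without vehicle replicate 2, vehicle replicate 4 or 1,25(OH)2D replicate 3. PSMB9 and ERAP1 passed in all 19 other settings at this time, and TAP1 and ERAP2 in 18 of 19. The changes of all 9 genes stayed negative in all 19. The summed log2 level of 6 basal epithelial markers was also lower at 48 h with 1,25(OH)2D (75.5 to 76.3, against 77.4 to 78.2 in vehicle), and 2 of these 6 genes fell, KRT15 (-1.92) and ITGB4 (-0.37). The difference in the sum was nearly all that of KRT15: KRT5 (0.01), KRT14 (0.06), ITGA6 (0.12) and DSG3 (0.22) had changes above 0 that did not pass, and the list median was 0.04. Of the other markers tested 0 of 5 luminal ones changed, and 1 of 2 endothelial ones and 1 of 3 of fibroblasts or muscle fell. Over all genes 6.86% fell. The part of these differences in the changes of the class I genes was not tested.

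At 6 h the groups overlapped in all 9 genes. Of the 9, 0 changed by limma (0 also at an unadjusted p under 0.05 and 0 by SAM), where 3.4% of all genes did, and the changes lay between -0.32 (TAP1) and 0.08 (TAPBP). PSMB9 measured 8.83, 8.87, 7.63 and 7.81 with 1,25(OH)2D at 6 h, against 9.08, 8.28, 7.82 and 7.96 in vehicle. Both groups spanned more than 1 unit, and the change was 0.00 (standard error 0.38, adjusted p = 1 by limma). Vehicle replicate 1, 1 of the 4 arrays that stood apart, was the highest vehicle array for PSMB8, PSMB9, PSMB10 and TAP1. It was the lowest for ERAP1, ERAP2, TAPBP and B2M. The genes differed in how they loaded on the axis on which the 4 arrays stood apart. The loading of PSMB9 on that axis was at percentile 0.2 of the genes tested, that of PSMB10 at 1.4, PSMB8 at 5.5 and TAP1 at 6.9, while ERAP2 was at 89.4. B2M (68.7), ERAP1 (66.6), TAPBP (48.8) and TAP2 (31.6) lay in the middle of the range.

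At 24 h the ER aminopeptidases and tapasin had the clearest differences, but 0 of the 9 genes passed the test, where 0.516% of all genes did, and the smallest adjusted p was 0.244. At an unadjusted p under 0.05 there were 3, and SAM called 2, ERAP1 and TAPBP. ERAP1 measured 8.65, 8.17, 8.66 and 8.17 with 1,25(OH)2D, against 9.04, 9.02, 8.89 and 8.98 in vehicle, a change of -0.57 (standard error 0.14, adjusted p = 0.244). TAPBP measured 9.90, 10.09, 10.10 and 10.36 with 1,25(OH)2D, against 10.66, 10.43, 10.43 and 10.53 in vehicle, a change of -0.40 (standard error 0.11, adjusted p = 0.353). In these 2 genes the groups did not overlap, with 1,25(OH)2D lower, as in 3.05% of all genes at 24 h, and their exact two-sided permutation p was 0.0286, the smallest that 4 arrays against 4 can give. ERAP2 measured 7.05, 6.11, 6.18 and 4.87 with 1,25(OH)2D, against 6.81, 7.80, 7.21 and 7.70 in vehicle. Its change of -1.32 (standard error 0.45, adjusted p = 0.473) came with overlapping groups. The lowest array was 1,25(OH)2D replicate 4, and without it the change was -0.93 (adjusted p = 0.546). PSMB9 measured 7.22, 8.07, 7.69 and 8.58 with 1,25(OH)2D, against 9.37, 8.30, 8.31 and 8.45 in vehicle, a change of -0.72 (standard error 0.35, adjusted p = 0.601). Here the highest array with 1,25(OH)2D (replicate 4) and the high vehicle array (replicate 1) were both among the 4 that stood apart. Without those 4 arrays, ERAP2 (-1.42), TAPBP (-0.37) and B2M (-0.37) fell and PSMB10 rose (0.77), with adjusted p between 0.0171 and 0.0269. That fit compared 2 arrays with 3 and called 21.1% of all probe sets.

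The changes at different times were compared with each other in a fit of all 24 arrays. Between 48 and 6 h, the effect was lower at 48 h in 2 of the 9 genes, PSMB9 (difference -1.93, standard error 0.48, adjusted p = 0.0284) and ERAP1 (difference -0.93, standard error 0.20, adjusted p = 0.00901), where 2.23% of all genes were. The other 7 lay between -0.94 and 0.01. ERAP1 passed in all 33 other settings. Of its other tested probe sets the second gave -0.91 (adjusted p = 0.0162 by limma) and the third -0.31 (adjusted p = 0.912 by limma). PSMB9 missed the threshold in 12 of 33, with adjusted p up to 0.137: without the level filter, after either further scaling, and without any one of 9 of the 24 arrays (vehicle replicates 2, 3 and 4 and 1,25(OH)2D replicates 1 and 2 at 6 h, vehicle replicates 1, 2 and 4 and 1,25(OH)2D replicate 2 at 48 h). Between 24 and 6 h and between 48 and 24 h, 0 of the 9 differed (3 and 2 at an unadjusted p under 0.05), where 2.84% and 0.0499% of all genes did. For the other 5 of the 7 genes that fell at 48 h, a difference from the effect at 6 h was not shown.

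Levels were also compared between times within each treatment. In vehicle, 4 of the 9 genes were higher at 48 h than at 6 h, where 9.0% of all genes were: PSMB9 by 1.12 (standard error 0.34, adjusted p = 0.0295), PSMB8 by 0.91 (0.23, adjusted p = 0.0101), TAP1 by 0.87 (0.21, adjusted p = 0.00779) and TAPBP by 0.39 (0.12, adjusted p = 0.0391). With 1,25(OH)2D the same differences between 48 and 6 h did not pass the test, at -0.82 for PSMB9, 0.23 for PSMB8, 0.54 for TAP1 and -0.06 for TAPBP. For the brightest probe set of ERAP1 the change over time passed with 1,25(OH)2D and not in vehicle. With 1,25(OH)2D it fell by 1.02 on the log2 scale between 6 and 48 h (standard error 0.14, adjusted p = 1.97e-05), 1 of 9 genes where 9.17% of all genes fell, while in vehicle the difference was -0.09 (adjusted p = 0.767). By group, PSMB9 averaged 8.28 ± 0.65, 7.89 ± 0.58 and 7.47 ± 0.38 at 6, 24 and 48 h with 1,25(OH)2D, against 8.29 ± 0.56, 8.61 ± 0.51 and 9.40 ± 0.13 in vehicle (SD, n = 4 each). ERAP1 averaged 8.95 ± 0.19, 8.41 ± 0.28 and 7.92 ± 0.25 with 1,25(OH)2D, against 8.93 ± 0.24, 8.98 ± 0.06 and 8.84 ± 0.06 in vehicle. A second probe set of ERAP1 also fell between 6 and 48 h with 1,25(OH)2D (-1.05) and not in vehicle (-0.14). The third probe set rose in vehicle (0.48, adjusted p by limma just under the threshold). With 1,25(OH)2D its change of 0.17 did not pass (adjusted p = 0.581 by limma). The 4 rises in vehicle between 6 and 48 h became 0 calls when each array was centred on its median, with changes of nearly the same size. That of PSMB9 was also lost without the level filter and without vehicle replicate 2, 3 or 4 at 6 h or 1, 2 or 4 at 48 h. That of TAPBP was lost without vehicle replicate 1, 2 or 3 at 6 h or 2, 3 or 4 at 48 h, without the filter, without the 4 arrays that stood apart and with its probe sets averaged. Those of PSMB8 and TAP1 were lost in no other setting run. Without the 4 arrays that stood apart, TAP2 (0.35, adjusted p = 0.0121) and PSMB10 (0.70, adjusted p = 0.0161) rose in vehicle too, which made 5 rises. Without the level filter NLRC5 was among those that rose (0.53, adjusted p = 0.0152). Its values are near the floor of the array, and vehicle replicate 2 at 48 h (2.20) lay within the vehicle range at 6 h (2.07 to 2.24). Without the 4 arrays that stood apart, PSMB9 and ERAP2 (-0.56) fell and TAP1 and TAP2 (0.33) rose between 6 and 48 h with 1,25(OH)2D as well, with unmoved changes, since none of the 4 belongs to these groups. TAP1 also passed without 1,25(OH)2D replicate 2 at 6 h, and TAP2 without vehicle replicate 1 at 24 h.

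Between 6 and 24 h, 3 of the 9 genes changed with 1,25(OH)2D, where 19.4% of all genes did. ERAP1 fell by 0.53 on the log2 scale (adjusted p = 0.0132), ERAP2 fell by 1.07 (adjusted p = 0.0300) and TAP2 rose by 0.47 (adjusted p = 0.0195). In vehicle TAPBP rose by 0.43 (adjusted p = 0.0388), 1 of 9 genes where 5.07% of all genes rose. The 3 changes with 1,25(OH)2D were all lost without replicate 3 at 6 h, without replicate 2 or 4 at 24 h or with a gene's probe sets averaged, and 6 genes passed without replicate 1 at 24 h. That of ERAP2 was also lost without replicate 4 at 6 h and without the level filter, and that of ERAP1 after centring. That of TAPBP in vehicle was lost without vehicle replicate 1, 2 or 3 at 6 h or any one of the 4 at 24 h. Between 24 and 48 h 0 of the 9 passed in either treatment (2 with 1,25(OH)2D and 1 in vehicle at an unadjusted p under 0.05).

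Among genes that work beside these 10, the falls at 48 h were in the class I heavy chains and a few single genes. In the remaining proteasome no change passed the test. Over all genes tested 6.86% fell at that time. Of 5 class I heavy chains tested 4 fell: HLA-B by 0.46, HLA-E by 0.40, HLA-G by 0.31 and HLA-C by 0.26 on the log2 scale (adjusted p = 0.00154 to 0.0218). The sequences of these genes are so alike that probes of one can bind RNA of another, so their values are not independent of each other, and HLA-C and HLA-G were named after their values were seen. Of 6 chaperones of peptide loading 1 fell, TAPBPL, a relative of tapasin, which averaged 7.82 ± 0.07 with 1,25(OH)2D and 8.55 ± 0.12 in vehicle (SD, n = 4 each, change -0.73, adjusted p = 0.000590 by limma). Of 6 further peptidases 1 fell, LAP3, a leucine aminopeptidase of the cytosol (change -0.34, adjusted p = 0.00703). Counts of 1 of 6 cannot be told apart from the share of 6.86% over all genes. Of the 3 standard catalytic subunits, 10 other subunits of the 20S core, 8 activators and assembly factors and 15 subunits of the 19S particle, 0 of 36 changed by limma at 6, 24 or 48 h (1, 3 and 4 at an unadjusted p under 0.05, and SAM was not run on these lists). Over all 12026 genes 3.4% changed at 6 h and 0.516% at 24 h, so 0 of 36 lies close to the share at these times. At 48 h 825 of all genes fell and 616 rose. Nearest to the threshold at 48 h were PSME1 (-0.30), PSMC1 (-0.13) and PSMG3 (0.24), with adjusted p of 0.0679, 0.0758 and 0.0869 by limma. PSME1 and PSMC1 were lower without overlap between the groups, and PSMG3 was higher with overlap. PSME2 had no probe set of its own, so it was not tested. The list medians at 48 h were -0.31 for the heavy chains and -0.13 for the chaperones. They were between -0.04 and 0.00 for the 4 proteasome lists, against -0.01 over all genes.

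**Figure D5:**
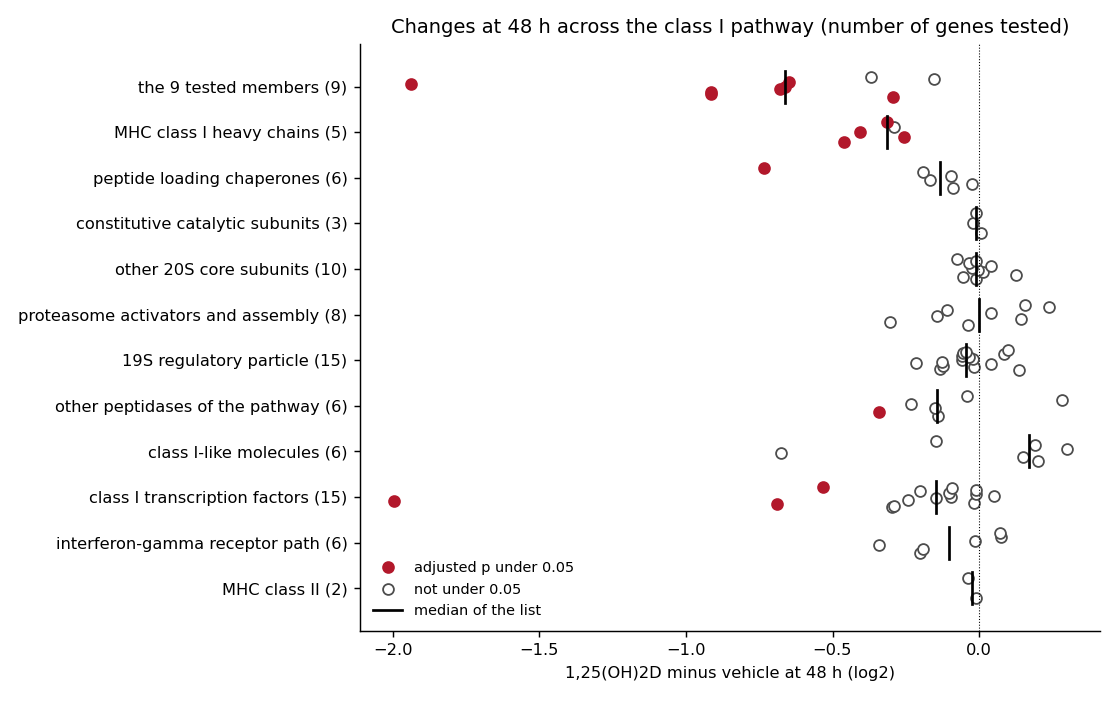
Change at 48 h (log2, 1,25(OH)2D minus vehicle) of the 9 tested members and of the genes of 11 lists of the class I pathway, 1 point per gene, filled where the adjusted p was under 0.05, with a line at each list's median. Filled points stand among the members, the heavy chains, the loading chaperones, the further peptidases and the transcription factors.

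Of 15 transcription factors, a list of regulators of class I genes to which VDR was added, 3 fell at 48 h and 0 rose, where 6.86% of all genes fell. IRF9, the DNA-binding part of the interferon-activated ISGF3 complex, averaged 8.81 ± 0.21 with 1,25(OH)2D and 10.80 ± 0.10 in vehicle (SD, n = 4 each, change -2.0, adjusted p = 3.64e-05 by limma). IRF1, an activator of the promoter that TAP1 and PSMB9 share, averaged 7.58 ± 0.14 with 1,25(OH)2D and 8.27 ± 0.09 in vehicle (n = 4 each, change -0.69, adjusted p = 0.00169 by limma). The third was VDR, the receptor of 1,25(OH)2D, with a change of -0.53 at 48 h (adjusted p = 0.0142), which was also the single gene of this list that fell at 6 h (-0.90, adjusted p = 0.000666). Over all genes 3.4% changed at 6 h and 0.516% at 24 h. Of 6 tested genes of the interferon-gamma receptor path and 2 of MHC class II, 0 changed by limma at any time. At an unadjusted p under 0.05 there were 2 of the receptor path at 24 h and 3 at 48 h, and 0 of class II. The level filter left out 7 of 9 class II genes and IFNG itself. Among 6 class I-like molecules CD1D rose at 24 h (0.80, adjusted p = 0.0421), and 0 changed at 48 h.

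As a description, the genes whose levels over the 24 arrays went most closely with TAP1 were IL10RB (r = 0.949), GSEC (r = 0.945), CMTR1 (r = 0.933), IRF1 (r = 0.930) and ALDH1L1 (r = 0.926), among 12026 genes. All 5 fell at 48 h, by 0.42 to 0.89 on the log2 scale. With B2M they were NMI (r = 0.938), LIMCH1 (r = 0.928), MGME1 (r = 0.926), PCLAF (r = 0.924) and CDKN3 (r = 0.908). NMI and LIMCH1 fell at 48 h as well (-1.03 and -0.94), and the other 3 did not pass the test at that time. The 24 arrays share their groups and the axis of the 4 arrays that stood apart, and both enter these correlations.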

How the data were processed

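RWPE1 cultures with 100 nM 1,25(OH)2D or vehicle were measured on 24 Affymetrix arrays. The authors background-corrected, quantile-normalized and summarised them together with gcRMA (version not given in the sources used here), and the deposited values are log2. All 24 columns were used, 62 control probe sets were left out, and no read depth exists: the number of arrays limits the precision. Gene symbols came from the platform annotation (41091 probe sets with 1 symbol, 1801 with several, 11721 with none). Locations and promoters came from RefSeq.

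limma 3.58.1 in R 4.3.3 (lmFit, eBayes) fitted the 8 arrays of each time, and 1 fit of 24 arrays gave differences between times. The methods were tested on simulated data, whose noise was independent between probe sets. That test cannot show how the calls behave under the axis that genes share in the real arrays. Alternatives were SAM (re-implemented, 5% false discovery rate), 1 fit of all arrays, no filter, a filter to 15000 probe sets, a second quantile normalization, centring on medians, adding 32 to linear values, limma's trend and robust options, a block for the replicate number, leaving out single arrays or the 4 arrays apart, averaging a gene's probe sets, ratios of mean linear values and an exact permutation test. Tables were computed in Python 3.11.15 with pandas 2.3.3, numpy 2.4.6 and scipy 1.17.1.

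The 10 genes, the lists and the rule for names were chosen with earlier results of these data known. The rule names all members, at most 2 risen and 2 fallen genes of a list at each time whose groups do not overlap, PSMB5, PSMB6, PSMB7 and IRF1, and the 5 genes most like TAP1 and B2M.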

Additional observations from a re-analysis of the deposited data

Results flagged for a closer look

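In vehicle at 24 h, replicate 1 stood far from the other 3 arrays in 3 genes by Dixon's criterion. TAP1 was 9.87 there, against 9.10 to 9.22 in the others, TAP2 was 9.0, against 8.46 to 8.50, and PSMB9 was 9.37, against 8.30 to 8.45. It is 1 of the 4 arrays that stood apart over all genes. Chance alone marks about 1 group in 20, and 54 groups were examined. The effect of 1,25(OH)2D differed between 48 and 6 h in PSMB9 (difference -1.93, adjusted p = 0.0284 by limma) and in ERAP1 (difference -0.93, adjusted p = 0.00901 by limma).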

How the results depend on the processing

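At 48 h, 7 of 9 genes fell, and 7 also by SAM, with the stricter filter, with limma's trend and robust options, with a gene's probe sets averaged and without the 4 arrays apart. The count was 2 with all arrays in one fit, 4 without the filter, 5 with median centring, which moved the median change of all probe sets at 24 h to 0.18 against 0.02, and 4 to 7 when each array was left out in turn. At 24 h it was 2 by SAM and in one fit and 4 without the 4 arrays apart, and at 6 h 0 in every setting. The effect differed between 48 and 6 h in 2 genes. The count was 1 without the filter, after a second quantile normalization and after centring, and 1 to 2 with single arrays left out. Between 24 and 6 h it was 1 without the 4 arrays apart and 0 to 1 with single arrays left out (ERAP2, -1.68, without 1,25(OH)2D replicate 1 at 24 h). The 4 rises in vehicle between 6 and 48 h became 0 after centring, 5 without the 4 arrays apart, 3 without the filter or with probe sets averaged, and 2 to 4 with single arrays left out (2 without vehicle replicate 2 or 3 at 6 h, or 2 or 4 at 48 h). With 1,25(OH)2D the count of 1 was 5 without the 4 arrays apart and 1 to 2 with single arrays left out (2 without 1,25(OH)2D replicate 2 at 6 h or vehicle replicate 1 at 24 h). Between 6 and 24 h, a comparison added after seeing the data, the count of 3 with 1,25(OH)2D was 5 without the 4 arrays apart, 0 with probe sets averaged and 0 to 6 with single arrays left out, and the count of 1 in vehicle was 0 without the filter, after centring, without the 4 arrays apart and with probe sets averaged, and 0 to 1 with single arrays left out. The causes were not tested. Same-numbered arrays deviated together at 6 h in 3 of 4 pairs (correlations of 0.626 to 0.781), but over all times the correlation was over 0.1 in 4 of 12 pairs, with the lowest at -0.907, so the numbers were not taken as pairs. With the replicate number as a block 5 genes fell at 48 h and the other counts were unchanged. No called change turned its sign.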
